A study of Mus musculus with 9 samples.

Results

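The Slc38 genes encode a family of carriers for neutral amino acids, also called SNATs. All rows of the deposited table whose gene name was Slc38a1, Slc38a2, Slc38a3, Slc38a4, Slc38a6, Slc38a7, Slc38a9 or Slc38a10 were taken, which gave 8 of the 35275 genes listed. RNA was measured in wild type mouse embryonic fibroblasts (MEFs) of the C57Bl/6 strain, grown in DMEM with fetal bovine serum and glutamine. Cells were left in iso-osmolar medium (300 mOsm) or kept for 3 h in medium made hyperosmotic with sucrose, either 500 mOsm (200 mM sucrose added) or 600 mOsm (300 mM sucrose added), with 3 libraries for each of the 3 media. The sources used here do not say whether libraries of a medium came from separate cultures. The p-values thus set differences between media against the spread between these libraries, which may be technical.

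Cells that lose water in hyperosmotic medium can regain volume by taking up small organic molecules, and neutral amino acids such as proline, alanine and glutamine are among them. Slc38a1, Slc38a2 and Slc38a4 encode the system A carriers of the plasma membrane, which bring these amino acids in together with sodium, and Slc38a2 (SNAT2) is known to be induced by hypertonicity and by amino acid shortage. Slc38a3 encodes a system N carrier of glutamine, histidine and asparagine that is best known from liver, kidney and brain. Slc38a7 and Slc38a9 encode proteins of the lysosomal membrane, an exporter of glutamine and asparagine and an arginine-responsive partner of the Rag GTPases upstream of mTORC1. Slc38a6 and Slc38a10 are less well characterised members.

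The system A genes lie on the minus strand of chromosome 15 (mm10), with no other protein-coding gene annotated between them. Gm22045, Gm38144, Gm8888 and Rpl10a-ps3 are annotated in between, and Gm38144 lies on the opposite strand 474 bases from Slc38a2. Slc38a1 occupied chr15:96571418-96642913, Slc38a2 chr15:96687394-96699698 and Slc38a4 chr15:96994823-97055956, with gaps of 44.5 kb and 295.1 kb between them. The longest coding transcript of each has 16 exons in the GENCODE annotation. The other members stand alone, Slc38a3 at chr9:107650639-107668968, Slc38a6 at chr12:73286779-73354049, Slc38a7 at chr8:95835920-95853539, Slc38a9 at chr13:112660766-112738743 and Slc38a10 at chr11:120103960-120151346. None of the system A genes overlaps another gene on either strand, whereas Slc38a9 and Slc38a10 share 182 and 367 exonic bases with other genes. Slc38a9 overlaps the antisense gene Gm47827 on the opposite strand and the processed pseudogene Gm18883 on its own strand. Slc38a10 overlaps the non-coding gene Gm11769 on the opposite strand. Whether reads were counted by strand is not given in the sources used here, so reads from the shared bases could not be told apart. Gm11769, the gene opposite Slc38a10, had only 1 to 11 counts per library. No counts are given here for the genes that overlap Slc38a9.

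Promoter sequence was taken from RefSeq (GRCm38.p6), which held windows of 300 bases around the start sites of 6 of the 8 members. The windows were searched on both strands for the TonE motif bound by Nfat5, for its core TGGAAA, for the CARE motif TGATGNAA bound by Atf4 and C/EBP proteins and for the kB site of NF-kB, and every TonE match also counts as a match of the core. Among all 32851 windows of the table, 4.96% held TonE, 21.4% the core, 3.97% CARE and 4.51% the kB site. The windows of Slc38a2 and Slc38a4 are shown because these system A genes rose at 500 mOsm, each as the 250 bases before the start site on the minus strand, with matches in capitals. The Slc38a2 window (chr15:96699729-96699978) held 0 matches of the 4 motifs. The CARE of this gene is known to lie in the first intron, outside the window. The longer Slc38a2 promoter that the authors tested in a reporter was not searched beyond the window. The upstream window of Slc38a4 (chr15:97055957-97056206) held 3 TonE matches, of which a pair on opposite strands overlap at the start site. Slc38a4 has 2 further start sites in the table, of which 1 had a core match in its window and neither had TonE. Of the other members, Slc38a6 had 1 TonE match and Slc38a7 1 core match. These letter matches are descriptions of sequence and not measured binding.
Slc38a2: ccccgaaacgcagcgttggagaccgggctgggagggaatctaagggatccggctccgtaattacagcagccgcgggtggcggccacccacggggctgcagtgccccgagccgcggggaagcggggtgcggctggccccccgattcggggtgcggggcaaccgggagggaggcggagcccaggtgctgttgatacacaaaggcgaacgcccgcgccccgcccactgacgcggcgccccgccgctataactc
Slc38a4: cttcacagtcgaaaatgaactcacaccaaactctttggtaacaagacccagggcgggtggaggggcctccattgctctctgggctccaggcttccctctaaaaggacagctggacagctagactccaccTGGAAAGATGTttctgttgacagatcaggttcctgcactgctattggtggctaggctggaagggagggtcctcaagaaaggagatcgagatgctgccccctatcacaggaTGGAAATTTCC

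Each library had 21716042 to 26740832 counts on genes, and a count of 3 corresponded to 0.112 to 0.138 CPM (counts scaled to library size with TMM factors). Of the 35275 genes, 13082 passed the filter on low counts and were tested with edgeR's quasi-likelihood test on all 9 libraries, and a gene was called where its Benjamini-Hochberg adjusted p was under 0.05. All 8 members passed the filter, Slc38a3 only through the hyperosmotic libraries. Among called genes, 47.2% had risen in the contrast of 500 mOsm with iso-osmolar medium, 43.0% in that of 600 mOsm with iso-osmolar medium and 40.9% in that of 600 with 500 mOsm. With offsets for GC content and gene length in each library these shares were 31.4%, 48.2% and 67.5%. Fibroblast markers (10 genes, among them Col1a1, Col1a2, Col3a1 and Vim, of which 1 or 2 had at most 3 counts in a medium) summed to 16300 to 17600 CPM in iso-osmolar medium, compared with 16100 to 17100 at 500 mOsm and 19000 to 20900 at 600 mOsm. Of the 8 fibroblast markers tested, 1 rose and 2 fell at 500 mOsm and 4 rose and 2 fell at 600 mOsm against iso-osmolar medium, where Col3a1 and Pdgfra were those that fell in both. The 4 epithelial markers summed to 0.0455 to 0.164, 3.47 to 3.69 and 0.134 to 0.209 CPM in the same order, with Krt5 at 0 in every library, and the 3 endothelial markers to 0.778 to 0.900, 11.5 to 12.9 and 2.01 to 3.18 CPM. The epithelial sum at 500 mOsm was nearly all Cdh1 (3.47 ± 0.207 CPM, SD, n = 3). Krt14 and Epcam stood at 0.0636 and 0.0126 CPM there. The endothelial sum at 500 mOsm was nearly all Pecam1 (11.1 ± 0.732 CPM). Cdh5 had 0.568 CPM there, beside 0.554 in iso-osmolar medium. Kdr, the remaining endothelial marker, was low but also highest at 500 mOsm (0.353 CPM). Summed counts over the iso-osmolar, 500 and 600 mOsm libraries were 0, 27 and 4 for Kdr, and 20, 860 and 119 for Pecam1. The 3 leukocyte markers found in the table, of 4 listed, summed to 0.860 to 1.55, 1.68 to 2.04 and 1.55 to 2.01 CPM. The part of these markers in the results was not tested. In bulk libraries, fewer cells of a type and less RNA per cell cannot be told apart.

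Slc38a2 was the member with the widest difference in level, and it was high at 500 mOsm alone. Its FPKM (the authors' level per gene length and library size) was 33.2, 29.6 and 32.0 in the iso-osmolar libraries. It was 192, 173 and 204 at 500 mOsm. At 600 mOsm it was 31.2, 32.2 and 29.1. Every 500 mOsm library lay above every library of the other media, and the iso-osmolar and 600 mOsm libraries overlapped. Relative to iso-osmolar medium, Slc38a2 rose 6.02-fold at 500 mOsm (95% interval 5.49 to 6.60; log2 fold change 2.59, SE 0.061, edgeR adjusted p = 1.48e-11), which was the 7th smallest p among the 1728 genes called higher. Between 600 and 500 mOsm it fell by 2.61 on the log2 scale (SE 0.061, edgeR adjusted p = 1.38e-11), the 8th smallest p among the 2250 genes called lower. At 600 mOsm the log2 fold change against iso-osmolar medium was -0.02 (95% interval -0.15 to 0.11, edgeR adjusted p = 0.856). These comparisons share libraries. The counts behind these values were 3295 to 3584 per library in iso-osmolar and 600 mOsm medium and 21440 to 24491 at 500 mOsm. In the ranking of all genes by FPKM, Slc38a2 stood at 359 to 444 in the 500 mOsm libraries and at 2338 to 2556 in the others.

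**Figure D1:**
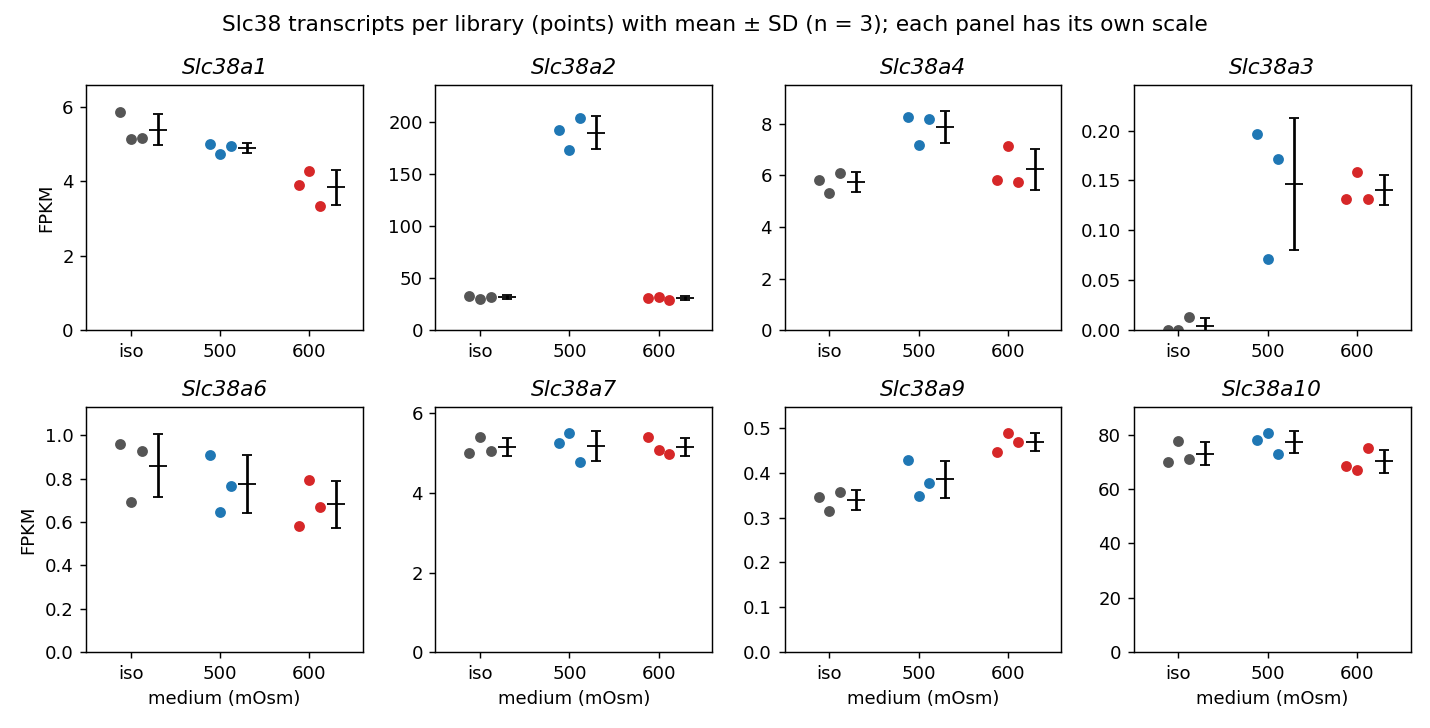
FPKM of each Slc38 gene (y axis, separate linear scale per panel) in the 3 libraries of each medium (x axis, points), with the mean ± SD (n = 3) beside them. Slc38a2 lies between 173 and 204 FPKM at 500 mOsm and between 29.1 and 33.2 FPKM otherwise, while Slc38a7 and Slc38a10 overlap across all media.

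Slc38a4, the other system A gene that rose at 500 mOsm, moved far less. Its FPKM was 5.82, 5.31 and 6.08 in iso-osmolar medium. At 500 mOsm it was 8.24, 7.16 and 8.19. At 600 mOsm it was 5.82, 7.13 and 5.72. All 500 mOsm libraries were above all others, with replicate 2 at 500 mOsm and replicate 2 at 600 mOsm nearly meeting at 7.16 and 7.13 FPKM. The rise at 500 mOsm was 1.37-fold (95% interval 1.20 to 1.57; log2 fold change 0.46, SE 0.090, edgeR adjusted p = 0.00182). Between 600 and 500 mOsm it fell by 0.32 on the log2 scale (SE 0.089, edgeR adjusted p = 0.0162), but this call was lost without 500 mOsm replicate 1 or 3 or without 600 mOsm replicate 1 or 3, with adjusted p of 0.0592, 0.0515, 0.0766 and 0.0696. Against iso-osmolar medium the log2 fold change at 600 mOsm was 0.13 (95% interval -0.06 to 0.33, edgeR adjusted p = 0.277), and with offsets for GC content and length it was 0.24 and passed the test (adjusted p = 0.0134).

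Slc38a1, the remaining system A gene, fell at 600 mOsm against iso-osmolar medium, a comparison in which its neighbours Slc38a2 and Slc38a4 did not pass the edgeR test. Its FPKM was 5.86, 5.14 and 5.15 in iso-osmolar medium. At 500 mOsm it was 5.00, 4.74 and 4.95. At 600 mOsm it was 3.91, 4.28 and 3.33, below every other library. Against iso-osmolar medium Slc38a1 fell by 0.47 on the log2 scale at 600 mOsm (0.721-fold, 95% interval 0.637 to 0.816, SE 0.082, edgeR adjusted p = 0.000807), and by 0.23 with offsets for GC content and length (adjusted p = 0.0188). The 500 mOsm libraries were also all below the iso-osmolar ones, but the difference did not pass the test (log2 fold change -0.13, SE 0.081, edgeR adjusted p = 0.257). Between 600 and 500 mOsm it fell by 0.34 (SE 0.082, edgeR adjusted p = 0.00817), a call that was lost with offsets for GC content and length (log2 fold change -0.06, adjusted p = 0.495). With 7752 bases the counted gene is long beside a median of 3020 over genes tested, and 1450 of its transcribed bases matched 4632432E15Rik at 95% identity or more, so that its counts could hold reads from that gene. Scaf11, the nearest protein-coding gene on the other side of Slc38a1, had log2 fold changes of 0.01 at 500 mOsm and -0.02 at 600 mOsm against iso-osmolar medium (edgeR adjusted p = 0.965 and 0.949).

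Slc38a3, the system N carrier, was close to undetected in iso-osmolar medium. Its counts were 0, 0 and 1 in the iso-osmolar libraries. At 500 mOsm they were 15, 6 and 14, and at 600 mOsm 10, 11 and 11. Every hyperosmotic library lay above every iso-osmolar library, and the libraries of both hyperosmotic media overlapped. Summed over libraries and scaled to their sizes, 35 counts against 1 gave a ratio of 32.1 at 500 mOsm (exact 95% interval 5.40 to 1300), and 32 counts against 1 gave 31.4 at 600 mOsm (5.25 to 1280), intervals that cover counting error only. The edgeR adjusted p was 0.000883 at 500 mOsm and 0.00105 at 600 mOsm against iso-osmolar medium, and 0.964 between the hyperosmotic media (log2 fold change -0.03, 95% interval -0.93 to 0.86). Because the gene passed the filter only through libraries where it was high, it had to differ, and these calls support nothing about the family. At its highest it reached 0.196 FPKM. It was 1 of 192 tested genes with 0 to 3 counts summed over the iso-osmolar libraries, of which 179 were called higher at 500 mOsm and 95 at 600 mOsm. The 3 hepatocyte markers (Alb, Afp and Ttr) summed to 2.05 to 2.73 CPM in iso-osmolar medium, compared with 2.75 to 3.13 at 500 mOsm and 1.97 to 2.69 at 600 mOsm, and the 3 neuronal markers to 1.14 to 1.76, 3.17 to 3.61 and 1.57 to 2.01 CPM. Of the hepatocyte markers, mean CPM in the same order was 2.34, 2.41 and 2.18 for Afp and 0, 0.482 and 0.0129 for Alb. Ttr had at most 1 count in a medium. Of the neuronal markers, it was 1.34, 3.27 and 1.69 CPM for Tubb3 and 0.146, 0.141 and 0.122 CPM for Syp. Rbfox3 had 0, 1 and 4 counts. The part of these markers in the Slc38a3 result was not tested.

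Slc38a9, the lysosomal arginine sensor, was low and rose at 600 mOsm. Its FPKM was 0.347, 0.315 and 0.357 in iso-osmolar medium. At 500 mOsm it was 0.430, 0.349 and 0.377, and at 600 mOsm 0.447, 0.488 and 0.469. The 600 mOsm libraries were above all others, and the 500 mOsm libraries overlapped the iso-osmolar ones. The rise at 600 mOsm was 1.40-fold against iso-osmolar medium (95% interval 1.15 to 1.70; log2 fold change 0.48, SE 0.13, edgeR adjusted p = 0.0128), from 67 to 77 counts per library to 96 to 111. This call was lost with DESeq2 (adjusted p = 0.057) and with limma on log2(FPKM + 0.1) (adjusted p = 0.0642). Between 600 and 500 mOsm the log2 fold change was 0.30 (SE 0.13, edgeR adjusted p = 0.0994), and 0.58 with offsets for GC content and length (adjusted p = 0.00177). The value for 500 mOsm against iso-osmolar medium was 0.18 (95% interval -0.11 to 0.47, edgeR adjusted p = 0.352).

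Slc38a7, the lysosomal glutamine exporter, showed no difference that passed a test. Its FPKM was 5.00, 5.40 and 5.06 in iso-osmolar medium. At 500 mOsm it was 5.26, 5.52 and 4.77, and at 600 mOsm 5.40, 5.09 and 4.98. The groups overlapped in every pairing. The 95% intervals of its log2 fold change were -0.17 to 0.20 at 500 mOsm and -0.17 to 0.20 at 600 mOsm against iso-osmolar medium (edgeR adjusted p = 0.944 and 0.884), and -0.18 to 0.19 between 600 and 500 mOsm (edgeR adjusted p = 0.958).

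Slc38a10 was the most abundant member outside 500 mOsm, and its libraries also overlapped between all media. Its FPKM was 69.9, 77.7 and 71.2 in iso-osmolar medium. At 500 mOsm it was 78.0, 80.7 and 72.8, and at 600 mOsm 68.6, 67.0 and 74.9. The log2 fold changes were 0.08 at 500 mOsm (95% interval -0.06 to 0.23) and -0.04 at 600 mOsm (-0.18 to 0.11) against iso-osmolar medium, and -0.12 between the hyperosmotic media (-0.27 to 0.03), with edgeR adjusted p of 0.408, 0.724 and 0.216.

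Slc38a6 was measured with 55 to 88 counts per library and had wide intervals. Its FPKM was 0.962, 0.694 and 0.926 in iso-osmolar medium. At 500 mOsm it was 0.911, 0.648 and 0.767, and at 600 mOsm 0.580, 0.795 and 0.671. All groups overlapped. The log2 fold change was -0.15 at 500 mOsm (95% interval -0.53 to 0.24) and -0.31 at 600 mOsm (-0.71 to 0.08) against iso-osmolar medium, with edgeR adjusted p of 0.6 and 0.201, and -0.17 between 600 and 500 mOsm (-0.56 to 0.23, adjusted p = 0.536). Stretches of at least 100 bases of its annotated transcripts matched transcripts of 335 other genes at 95% identity or more, the longest over 3260 bases, so its counts are uncertain. A change smaller than these intervals was not detectable at this depth.

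At 500 mOsm, 3 of the 8 members were called against iso-osmolar medium (37.5%, beside 28.0% of all genes tested). Without Slc38a3, which was tested only through its hyperosmotic counts, 2 of 7 were called (28.6%), a share near that of all genes. Slc38a2, Slc38a3 and Slc38a4 rose (13.2% of all genes tested rose) and 0 fell (14.8%), which was also 0 at an unadjusted edgeR p under 0.05, with DESeq2 and with limma on log2 FPKM. The median log2 fold change of the members was 0.13, beside 0.01 over all genes tested. Without Slc38a3 the members' median was 0.084. Libraries of both media did not overlap for 4 members, among them Slc38a3, which had to differ, and for 40.9% of all genes tested. At 600 mOsm, 3 members were again called (37.5%, beside 35.1% of all genes), with Slc38a3 and Slc38a9 higher (15.1% of all genes) and Slc38a1 lower (20.0%). The members' median was 0.0014 (0.01 over all genes), and -0.0163 without Slc38a3. For 3 members, again with Slc38a3 among them, the libraries did not overlap (48.4% of all genes). Without Slc38a3, 2 of 7 were called at 600 mOsm (28.6%), so that the share of called members was not above that of all genes. Between 600 and 500 mOsm, 3 members were called (37.5%, beside 29.1% of all genes). Slc38a1, Slc38a2 and Slc38a4 fell (17.2% of all genes fell) and 0 rose (11.9%), where 1 member, Slc38a9, was higher at an unadjusted edgeR p under 0.05, and 0 rose with DESeq2 or with limma. These directions depended on the processing. With offsets for GC content and length Slc38a9 was called higher and Slc38a1 was not called, and the Slc38a4 call was lost in 4 of the fits that left out a library, whereas Slc38a2 was called lower in every fit. The median was -0.14, beside 0.01 over all genes, and 4 members did not overlap (41.5% of all genes).

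**Figure D2:**
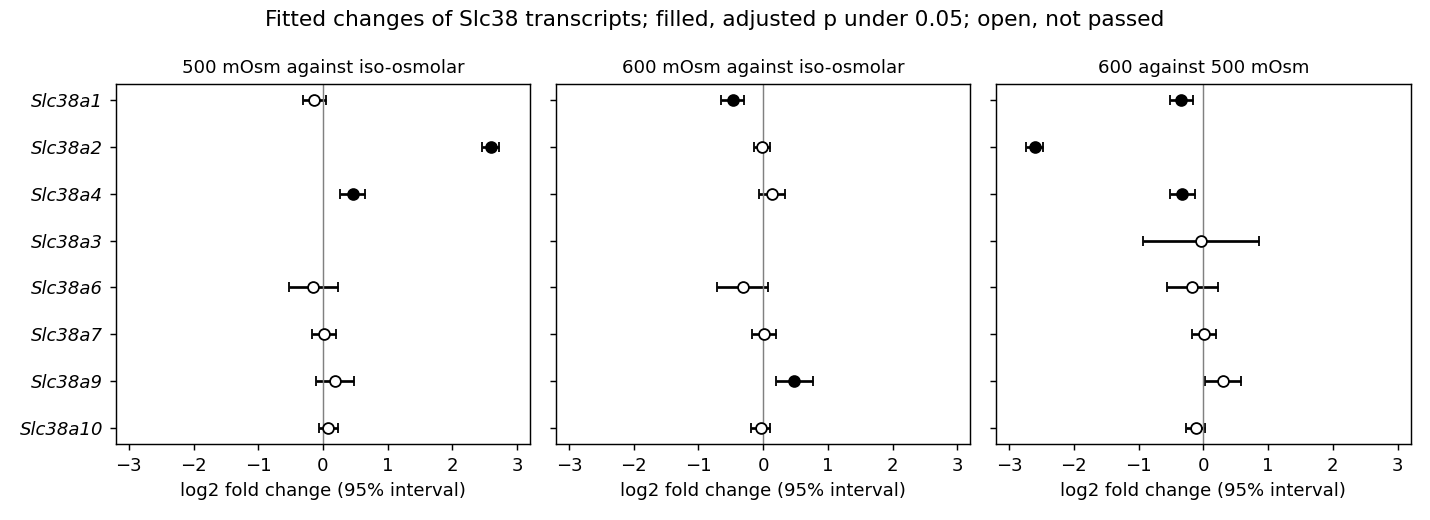
Log2 fold change (x axis) with its 95% interval for each Slc38 gene (y axis) in the 3 comparisons, filled where the edgeR adjusted p was under 0.05. Slc38a2 stands at 2.59 and -2.61 in the outer panels and every other value drawn lies within 0.5 of 0; Slc38a3 is drawn only between the hyperosmotic media, since its fitted change against 0, 0 and 1 counts depends on the prior count.

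Levels were compared between members per gene length, as FPKM. In iso-osmolar medium Slc38a10 was highest with 72.9 ± 4.18 FPKM (SD, n = 3), followed by Slc38a2 with 31.6 ± 1.84. Slc38a4 (5.74 ± 0.391), Slc38a1 (5.39 ± 0.414) and Slc38a7 (5.15 ± 0.218) followed, and neighbours among these overlapped. Slc38a6 (0.860 ± 0.145), Slc38a9 (0.340 ± 0.022) and Slc38a3 were lowest, without overlap. At 500 mOsm Slc38a2 was first with 190 ± 15.7 FPKM (SD, n = 3) and Slc38a10 second with 77.2 ± 4.04. Slc38a4 (7.86 ± 0.609) was then above Slc38a7 (5.18 ± 0.379) and Slc38a1 (4.89 ± 0.135), and the last pair overlapped. At 600 mOsm the order was Slc38a10 (70.2 ± 4.18), Slc38a2 (30.8 ± 1.60), Slc38a4 (6.22 ± 0.786), Slc38a7 (5.15 ± 0.217) and Slc38a1 (3.84 ± 0.477), and none of these neighbours overlapped. Slc38a6 (0.682 ± 0.107), Slc38a9 (0.468 ± 0.0204) and Slc38a3 (0.140 ± 0.0153) were again the lowest.

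FPKM was summed over the 8 members and the 3 other Slc38 genes listed, whose mean was at most 0.0549 FPKM in any medium. The sum was 122 ± 1.88 in iso-osmolar medium, compared with 286 ± 12.4 at 500 mOsm and 118 ± 1.63 at 600 mOsm (SD, n = 3 each). Without Slc38a2 it was 90.4 ± 3.62, 96.5 ± 3.86 and 86.7 ± 3.05. Slc38a2 held 25.9% ± 1.86 of the sum in iso-osmolar medium, compared with 66.3% ± 2.68 at 500 mOsm and 26.3% ± 1.65 at 600 mOsm. Slc38a10 held 59.7% ± 2.52, 27.0% ± 2.54 and 59.7% ± 2.85 in the same order. Slc38a10 thus held the largest share outside 500 mOsm and Slc38a2 at 500 mOsm.

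**Figure D3:**
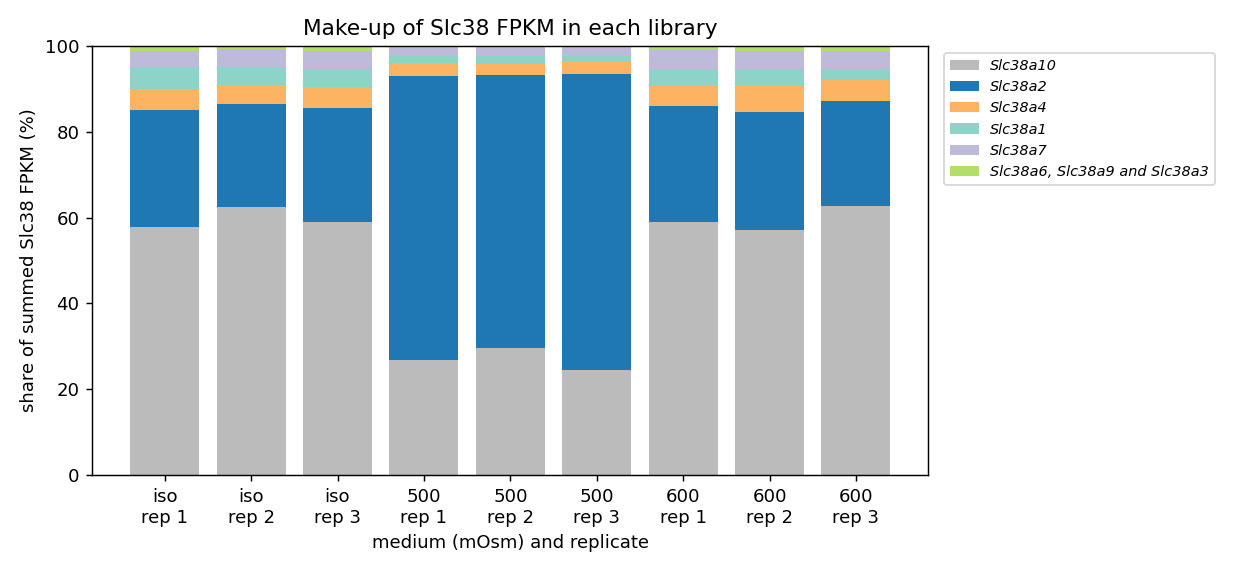
Share of the FPKM summed over the 8 members and the 3 other Slc38 genes listed (y axis, percent) in each of the 9 libraries (x axis). Bars show the members, with Slc38a6, Slc38a9 and Slc38a3 drawn together. Slc38a2 takes 63.6% to 68.9% in the 500 mOsm libraries and 23.8% to 27.5% in the others.

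The table also lists Slc38a5, Slc38a8 and Slc38a11, which are no members here and did not pass the filter. Slc38a5, a system N carrier, had 0 counts in every library, and Slc38a11 had 1 count in all. Slc38a8 had 0 counts in the iso-osmolar libraries, 4, 2 and 5 at 500 mOsm and 1, 4 and 2 at 600 mOsm. More genes of the whole table had a count in hyperosmotic medium too. They numbered 16452 to 16871 in the iso-osmolar libraries, 18920 to 19222 at 500 mOsm and 17846 to 18031 at 600 mOsm.

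Genes whose pattern over the 9 libraries was most like that of Slc38a2 were found by the root mean square difference of log2 CPM, each gene centred on its own mean. The 5 nearest were Iqsec3 (0.0828), Bpifb6 (0.110), Abat (0.169), Hes1 (0.184) and Abcc6 (0.187), beside a median of 1.24 over all genes tested. Hes1, a transcriptional repressor downstream of Notch, had 6.62 ± 0.826 CPM in iso-osmolar medium, compared with 48.6 ± 3.05 at 500 mOsm and 6.69 ± 0.836 at 600 mOsm (SD, n = 3 each). Abat, the transaminase of GABA, had 0.199 ± 0.0323, 1.62 ± 0.289 and 0.221 ± 0.0517 CPM. Iqsec3 and Bpifb6 had 35 counts each over the 500 mOsm libraries and 0 elsewhere, and Abcc6 had 33 over those libraries, 1 at 600 mOsm and 0 in iso-osmolar medium, so their likeness depends on the prior count of 2 added before the logarithm. By the same measure the gene nearest to Slc38a1 was Gna13 (0.0385, median over all genes 0.296), to Slc38a4 Kidins220 (0.0515, median 0.283), to Slc38a9 Large (0.0439, median 0.290), to Slc38a7 Mpv17l2 (0.0263, median 0.204) and to Slc38a10 Med25 (0.0280, median 0.213).

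Of 9 genes listed for the control of Slc38a2, 2 rose at 500 mOsm against iso-osmolar medium and 7 did not pass. At 600 mOsm 1 rose, 3 fell and 5 did not pass, and between 600 and 500 mOsm 5 fell and 4 did not pass. The medians of their log2 fold changes were 0.03, -0.08 and -0.23 in the same order, beside 0.01 over all genes in each comparison. Of all genes tested, 13.2% rose and 14.8% fell at 500 mOsm against iso-osmolar medium, and 15.1% and 20.0% at 600 mOsm. Between 600 and 500 mOsm these shares were 11.9% and 17.2%. The shares and medians over all genes hold for the lists that follow too. Ppp1r15a (GADD34), which directs the phosphatase that reverses eIF2alpha phosphorylation, had 22.2 ± 1.70 CPM in iso-osmolar medium, compared with 185 ± 8.97 at 500 mOsm and 27.8 ± 1.36 at 600 mOsm. Its log2 fold change at 500 mOsm was 3.05 (SE 0.069, edgeR adjusted p = 1.01e-11). Nfat5 (TonEBP), the transcription factor of the tonicity response, had 67.7 ± 10.4, 83.9 ± 13.4 and 36.4 ± 7.48 CPM, and fell by 1.21 on the log2 scale between 600 and 500 mOsm (SE 0.15, edgeR adjusted p = 6.63e-05). Sgk1, a kinase induced by corticoids and cell volume changes, had 301 ± 17.8, 270 ± 14.8 and 184 ± 9.43 CPM, and fell by 0.71 between 600 mOsm and iso-osmolar medium (SE 0.059, edgeR adjusted p = 2.02e-06). Atf4, the transcription factor of the integrated stress response, had 364 ± 7.54, 430 ± 2.94 and 374 ± 19.0 CPM. Its rise at 500 mOsm was small (log2 fold change 0.24, SE 0.045, edgeR adjusted p = 0.00143) and was lost with offsets for GC content and length (0.07, adjusted p = 0.224).

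Of 18 genes listed for amino acid sensing at the lysosome, where Slc38a9 acts, 16 were tested. Against iso-osmolar medium 1 rose and 2 fell at 500 mOsm and 4 rose and 2 fell at 600 mOsm, and between 600 and 500 mOsm 1 rose and 1 fell, with medians of -0.0047, -0.01 and 0.01. Fnip2, a partner of folliculin, had 30.1 ± 1.67 CPM in iso-osmolar medium, compared with 15.8 ± 0.865 at 500 mOsm and 15.4 ± 1.05 at 600 mOsm, and fell by 0.96 on the log2 scale at 600 mOsm (SE 0.081, edgeR adjusted p = 2.21e-06). Rragc, a Rag GTPase, had 52.6 ± 3.08, 51.4 ± 1.52 and 30.8 ± 2.48 CPM, and fell by 0.77 at 600 mOsm (SE 0.072, edgeR adjusted p = 4.97e-06). Flcn (folliculin) fell by 0.40 at 500 mOsm (SE 0.070, edgeR adjusted p = 0.000759). Rptor, the mTORC1 scaffold raptor, was higher by 0.25 at 500 mOsm (SE 0.054, edgeR adjusted p = 0.0037), a call that was lost with offsets for GC content and length (adjusted p = 0.0757).

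Of 14 genes listed from other families of sodium- or proton-coupled carriers of neutral amino acids, 6 were tested. Against iso-osmolar medium 1 rose and 5 did not pass at 500 mOsm and 2 rose and 1 fell at 600 mOsm, and between 600 and 500 mOsm 1 rose and 5 did not pass, with medians of -0.12, -0.12 and 0.04. Slc6a9, the glycine carrier GlyT1, had 11.9 ± 0.371, 16.1 ± 0.244 and 16.6 ± 1.35 CPM in iso-osmolar, 500 and 600 mOsm medium, and its log2 fold change at 600 mOsm was 0.49 (SE 0.084, edgeR adjusted p = 0.00076). Slc1a4 (ASCT1), an exchanger of alanine, serine and cysteine, rose by 0.26 at 600 mOsm (SE 0.046, edgeR adjusted p = 0.000788). Slc36a4 was lower by a log2 fold change of -0.37 at 600 mOsm (SE 0.12, edgeR adjusted p = 0.0296), a call that was lost without iso-osmolar replicate 1 or 3 or 600 mOsm replicate 3 (adjusted p = 0.117, 0.0549 and 0.117), with both limma fits (0.0518 and 0.0557) and with offsets for GC content and length (0.152). Slc1a5 (ASCT2), a main glutamine exchanger of dividing cells, had a log2 fold change of -0.18 at 500 mOsm that did not pass (SE 0.069, edgeR adjusted p = 0.068). It did pass with offsets for GC content and length (-0.29, adjusted p = 0.00127), with limma on log2(FPKM + 1) (0.0406), and without 500 mOsm replicate 2 or 600 mOsm replicate 2 or 3 (0.0301, 0.0375 and 0.0488).

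Of 20 genes of glutamine metabolism, 19 were tested. Against iso-osmolar medium 2 rose and 4 fell at 500 mOsm and 3 rose and 4 fell at 600 mOsm, and between 600 and 500 mOsm 2 rose and 2 fell, with medians of 0.0069, 0.0047 and 0.04. Ppat, the glutamine-using entry enzyme of purine synthesis, fell by 0.39 at 500 mOsm (SE 0.064, edgeR adjusted p = 0.000472). Gfpt1, which makes glucosamine phosphate from glutamine, fell by 0.36 at 600 mOsm against iso-osmolar medium (SE 0.079, edgeR adjusted p = 0.0038), a call lost with offsets and the replicate block together (adjusted p = 0.0542). Aldh18a1, the entry enzyme of proline synthesis, rose by 0.18 in the same comparison (SE 0.041, edgeR adjusted p = 0.00565).

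**Figure D4:**
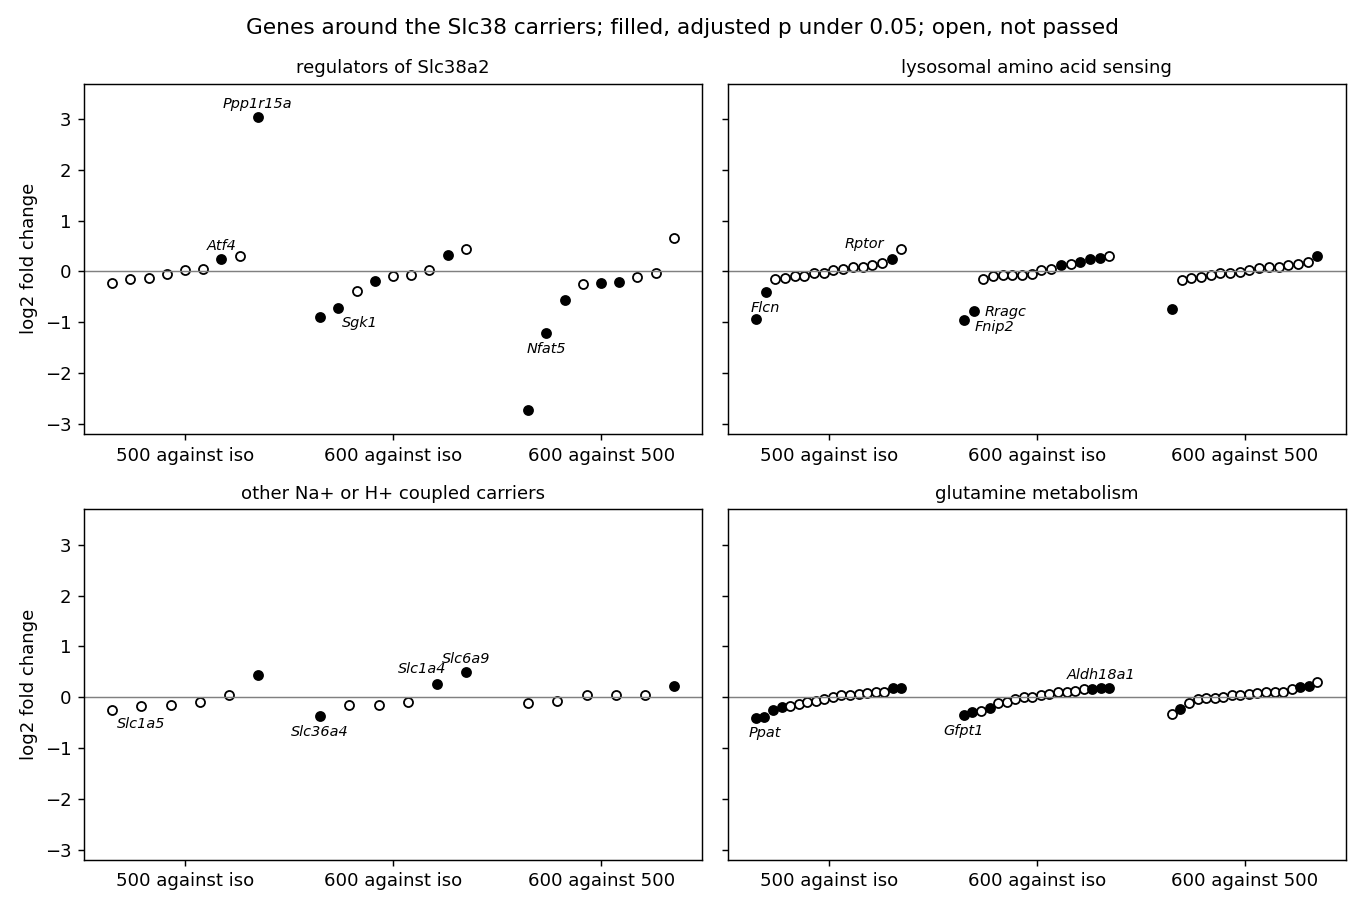
Log2 fold change (y axis) of the genes tested in each of the 4 surrounding lists for the 3 comparisons (x axis), sorted within a comparison and filled where the edgeR adjusted p was under 0.05, with 1 gene of glutamine metabolism not drawn. Ppp1r15a at 500 mOsm (3.05) lies beyond every gene drawn of the other 3 lists, whose values stay within 1 of 0.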

How the data were processed

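Poly-A RNA of 9 MEF libraries was sequenced by the authors as paired-end reads and aligned to mm10. The submitters' processing notes name STAR and CASAVA 1.8, while the counting tool, the annotation and the use of strand are not given in the sources used here. The authors deposited raw counts per gene and library. The authors also deposited FPKM, which scale those counts to gene length and library total. The deposited table further holds the authors' group means, fold changes and p-values, which were not used.

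Groups follow the sample labels. Counts were normalised by TMM, filtered with filterByExpr (minimum count 10) and tested in edgeR 4.0.16 (R 4.3.3) by the quasi-likelihood test with medium as the factor and no block. Benjamini-Hochberg adjustment ran over the 13082 genes tested, with a threshold of 0.05, with a common biological coefficient of variation of 0.0756. The study used DESeq2, which was run here as an alternative (1.42.0), as was limma (3.58.1) on log2 FPKM with 1 or 0.1 added. Other alternatives were RLE factors or library size alone, no filter or at least 10 counts in every library, a fit of each pair of media alone, a block for the replicate number, a fold or stricter p threshold, offsets for GC content (from GENCODE transcripts, 99.5% of genes tested) and length, and each library left out. The offsets together with the block were added after seeing the data. Tests were tried on simulated data. Transcripts were matched to those of other genes in blastn 2.17.0 (at least 100 bases, 95% identity).

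Named genes are all 8 members, up to 4 genes of each list with the smallest p over the 3 comparisons, the 5 genes most like Slc38a2, the nearest gene of other members, and neighbours by position. The members and lists were chosen with earlier results of these data known. Libraries of 1 medium differed by more than sampling noise (chi-square per degree of freedom 5.25 to 15.9), so none was a second copy of another, which does not show that they came from separate cultures. Protein sequences were not analysed here, and the values of 1 gene that this rule names are not reported here.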

Additional observations from a re-analysis of the deposited data

How the results depend on the processing

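The number of members called was 2 to 4 under all alternatives except when a log2 change of 1 or more in size was also required, which left 1 member at 600 mOsm against iso-osmolar medium and 1 between 600 and 500 mOsm. Each library left out in turn gave 3 members at both intensities against iso-osmolar medium and 2 to 3 between 600 and 500 mOsm. The log2 fold change of Slc38a2 ranged from 2.54 to 2.63 at 500 mOsm and from -2.65 to -2.53 between 600 and 500 mOsm. Slc38a3 was not tested with at least 10 counts in every library, nor at 500 mOsm when each pair of media was fitted alone.

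No pairing of libraries by replicate number was seen. Deviations of same-numbered libraries correlated with a mean r of -0.201 over 9 pairs (0.102 for different numbers), and 2 of 9 libraries correlated best with their own number. Deviations were taken from the mean of each medium, which ties these mean correlations to each other. With 3 libraries per medium the check cannot decide whether the numbers mark pairs. With the replicate block 3 members were called in each comparison, and the genes called numbered 3111, 3798 and 3089, beside 3659, 4594 and 3810 without it. Requiring a log2 change of 1 or more in size left 1122, 742 and 857 genes, and an adjusted p under 0.01 left 2846 at 600 mOsm and 2352 between the hyperosmotic media.

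Values that changed sign all belonged to comparisons in which the member was not called, and the cause was not tested. For Slc38a7, the log2 fold change at 500 mOsm was -0.0056 with no filter, -0.104 with GC content and length offsets, -0.106 with these and the block, and -0.0568 to 0.0742 with each library left out. At 600 mOsm against iso-osmolar medium it was -0.00035 with library size alone, -0.0037 with the offsets, -0.0029 with the block added, and -0.0154 to 0.0633 with each library left out. Between 600 and 500 mOsm it was -0.0085 with library size alone, -0.0042 with at least 10 counts in every library, -0.0053 and -0.0060 with limma on log2(FPKM + 1) and log2(FPKM + 0.1), and -0.0551 to 0.0734 with each library left out. For Slc38a10 the offsets gave -0.0701 with and without the block at 500 mOsm, and 0.0259 without and 0.0260 with the block between 600 and 500 mOsm, and leaving out each library gave -0.0995 to 0.0214 at 600 mOsm against iso-osmolar medium. For Slc38a2 at 600 mOsm against iso-osmolar medium the offsets gave 0.0944 without and 0.0937 with the block, and leaving out each library gave -0.0537 to 0.0155. For Slc38a3 between 600 and 500 mOsm the value was 0.0023 with limma on log2(FPKM + 0.1), 0.0532 with the offsets, 0.0569 with the block added, and -0.356 to 0.225 with each library left out.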
